A study of Mus musculus with 9 samples.

Results

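The genes described here encode the mitochondrial respiratory chain. They are the protein-coding genes of the deposited table whose names begin with Ndufa, Ndufb, Ndufc, Ndufs, Ndufv, Sdh, Uqcr or Cox4 to Cox8, together with the protein-coding genes of the mitochondrial genome, selected on the mean normalized count over the 9 libraries and kept where that mean was 5 or more. Of 54838 genes in the table, 93 matched the names and 88 passed the mean, out of 19656 genes that passed it in all. The 88 comprised 76 nuclear genes and 12 genes of the mitochondrial genome. The nuclear members were 36 genes of complex I, 4 of complex II, 8 of complex III, 15 of complex IV, 12 assembly factors and the supercomplex factor Cox7a2l. The mitochondrially encoded members were 6 genes of complex I, 1 of complex III, 3 of complex IV and 2 of the ATP synthase. The mean used for the choice is a measured value of these same libraries, and it is not used as support for anything below.

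Messenger RNA was sequenced from embryonic mouse kidney cells of the CD1 strain, sorted for CD133 (prominin-1) and labelled as proximal tubule. The 3 groups had 3 libraries each. Control vehicle embryos carried Tsc1 fl/fl without Cre, a floxed allele that both mutant groups also carried, and their dams received the vehicle DMSO. Mutant vehicle embryos were Six2 Cre Tsc1 fl/fl with DMSO, and mutant rapamycin embryos were Six2 Cre Tsc1 fl/fl whose dams had rapamycin injections of 0.2 mg/kg on alternate days between E12.5 and E16.5 of gestation. Kidneys were taken at E18.5. Six2 Cre acts in nephron progenitors and their descendants, so stroma, vessels and collecting duct in the same suspension keep Tsc1. No control group received rapamycin, and none carried Six2 Cre, so loss of Tsc1 and the presence of Six2 Cre cannot be told apart. The labels do not say whether a replicate is 1 embryo or a pool, so the tests measure the spread between these libraries.

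The respiratory chain passes electrons from NADH and succinate to oxygen and pumps protons across the inner mitochondrial membrane, and the ATP synthase uses that gradient to make ATP. Complex II is encoded wholly in the nucleus, whereas complexes I, III, IV and the ATP synthase also need subunits made from mitochondrial DNA. Mitochondrial genes are transcribed as long precursors from both strands that are then split into single messages, so their RNA levels depend on a machinery separate from that of the nuclear genes. The proximal tubule is among the most mitochondria-rich segments of the nephron. Tsc1 restrains the kinase complex mTORC1, which rapamycin inhibits and which is known to promote mitochondrial gene expression in several cell types.

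Total counts ran from 23372093 to 32669791 per library. Tsc1 itself had 1440 to 2041 normalized counts in control vehicle, 1570 to 1747 in mutant vehicle and 1526 to 1686 in mutant rapamycin libraries. These ranges overlapped, and a count over the whole gene cannot show the loss of a floxed part, so it does not check the labels. All 16 proximal tubule markers were counted, with summed normalized counts of 20226 to 25164 in control vehicle, 24896 to 27840 in mutant vehicle and 32105 to 43969 in mutant rapamycin libraries. Markers of other kidney cells were present too, since the stromal gene Col1a1 alone had 30665 to 65468 normalized counts, and the libraries are therefore described as CD133-sorted kidney cells. In such bulk samples, fewer cells of a type and less RNA per cell cannot be told apart. The gene Gm42418, which lies over ribosomal RNA sequence, took 5.18% of the counts of control vehicle 1 and 2.80% of those of mutant rapamycin 2, against 0.425% to 1.42% in the other 7 libraries.

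The 13 protein-coding genes of the mitochondrial genome fell into separate ranges of counts. Nd1, Nd2, Nd4 and Nd5 (complex I), Cytb (complex III) and Co1 (complex IV) had mean normalized counts of 38041 to 124736, and mt-Atp8 and mt-Nd6 had means of 2225 and 2264. The means of mt-Nd3, mt-Co3, mt-Atp6 and mt-Co2 were only 32.9, 30.4, 23.2 and 16.6, and mt-Nd4l had 2 counts over all 9 libraries and no normalized count. These 5 genes are the ones with nearly their whole sequence also present, almost base for base, in nuclear DNA. The abundant mt-Nd4 and mt-Co1 have such a copy of a part only, over 876 and 483 aligned bases. A block of 7 unprocessed pseudogenes on chr1:24611535-24616197 (GRCm38, minus strand, 4663 bases) carries copies of neighbouring mitochondrial genes. The start of mt-Nd3 and of its copy Gm28438 is shown because it holds the only base that differs between them over 345 aligned bases, given in capitals, and the start of mt-Co3 and of its copy Gm28437 is shown as a stretch with no difference, as in all 783 aligned bases.
mt-Nd3: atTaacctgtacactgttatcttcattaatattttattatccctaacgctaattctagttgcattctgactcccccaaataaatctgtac
Gm28438: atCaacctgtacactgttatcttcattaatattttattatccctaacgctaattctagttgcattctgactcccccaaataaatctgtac
mt-Co3: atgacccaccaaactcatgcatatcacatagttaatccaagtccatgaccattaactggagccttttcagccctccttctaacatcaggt
Gm28437: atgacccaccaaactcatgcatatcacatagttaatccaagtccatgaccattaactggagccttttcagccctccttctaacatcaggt

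Each gene was scored by the share of its 75-base windows, the read length of the sequencing kit, that occur in no other annotated gene's transcript. The share was 0.141% for mt-Co3, 0.492% for mt-Co2, 0.494% for mt-Atp6, 1.35% for mt-Nd4l and 2.19% for mt-Nd3. It was 38.5% for mt-Nd4, whose copy Gm28439 covers 876 bases without a difference, and 60.2% for mt-Co1, whose copy Gm29216 differs at 1 of 483 aligned bases. It was 94.3% for mt-Nd2, 98.3% for mt-Nd5 and 100% for mt-Nd1, mt-Cytb, mt-Nd6 and mt-Atp8. The copies of mt-Atp6 (Gm10925), mt-Co2 (Gm28661) and mt-Nd4l (Gm10222) had no difference over 678, 681 and 294 aligned bases. The pseudogenes had few counts too, with 134 over all 7 genes and 9 libraries. How the aligner and counter treated reads with more than 1 match is not given in the sources used here, and its part in these low counts was not tested. The levels of mt-Co2, mt-Co3, mt-Atp6, mt-Nd3 and mt-Nd4l therefore rest on the few reads that were counted, and sums over the mitochondrial genes rest on the other 8. Medians and sign counts over the mitochondrial members below weight each gene alike, and so include mt-Co2, mt-Co3, mt-Atp6 and mt-Nd3.

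**Figure D1:**
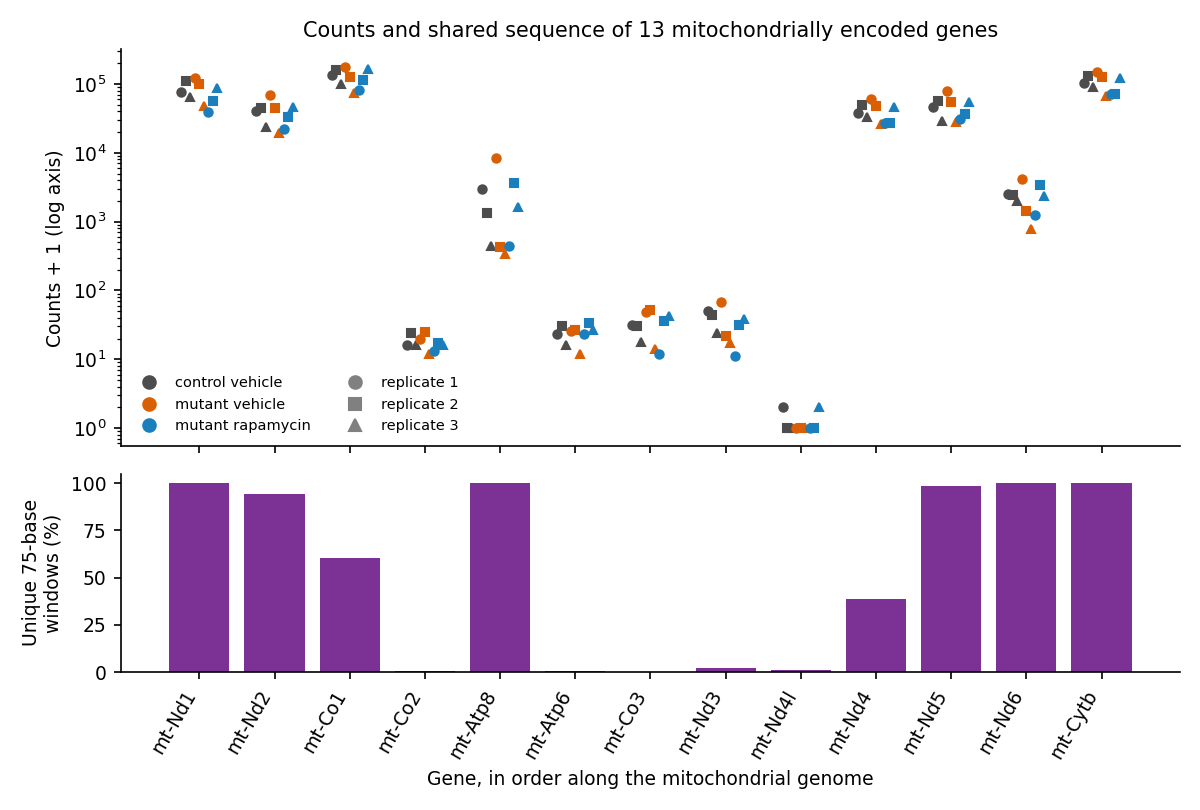
Counts plus 1 of the 13 mitochondrially encoded protein-coding genes in each library (top, log axis, colour for group and marker for replicate) and the share of 75-base windows found in no other annotated gene (bottom), in genome order. The 5 genes with 0.141% to 2.19% unique windows are the 5 with the lowest counts, and mt-Atp8, between 2 of them, spreads over a wider range than any other gene.

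Mitochondrial RNA varied more between libraries of 1 group than between groups. The 12 mitochondrially encoded members took 1.74%, 1.88% and 1.14% of all counts in control vehicle 1 to 3, 2.47%, 1.92% and 1.13% in mutant vehicle 1 to 3, and 0.997%, 1.41% and 1.62% in mutant rapamycin 1 to 3. The group means were 1.59% ± 0.390, 1.84% ± 0.673 and 1.34% ± 0.316 (SD, n = 3). Mutant vehicle 1 was highest and mutant rapamycin 1 lowest, and all 3 groups overlapped.

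The 76 nuclear members together took a smaller and steadier share. It was 0.476%, 0.543% and 0.735% in control vehicle 1 to 3, 0.500%, 0.530% and 0.616% in mutant vehicle 1 to 3, and 0.531%, 0.459% and 0.540% in mutant rapamycin 1 to 3. Control vehicle 3 was highest, mutant rapamycin 2 lowest, and the groups overlapped again. The ratio of mitochondrial to nuclear member counts was 3.65, 3.46 and 1.56 in control vehicle, 4.94, 3.62 and 1.84 in mutant vehicle, and 1.88, 3.08 and 2.99 in mutant rapamycin libraries. It was lowest in control vehicle 3, mutant vehicle 3 and mutant rapamycin 1. The groups overlapped, and the mutant rapamycin range (1.88 to 3.08) lay inside that of each vehicle group. The labels do not say that a shared number pairs libraries. Deviations of same-numbered libraries correlated at 0.43, 0.14 and 0.45 between mutant and control vehicle. Libraries of different number reached 0.47 elsewhere, for mutant rapamycin 2 with control vehicle 1. Between libraries of the same number the ratio was higher in mutant than in control vehicle in 3 of 3 pairs, by 1.30, 0.159 and 0.280. The SD of the ratio was 1.16 in control vehicle and 1.56 in mutant vehicle, and no test was made on this ratio of sums over the members.

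**Figure D2:**
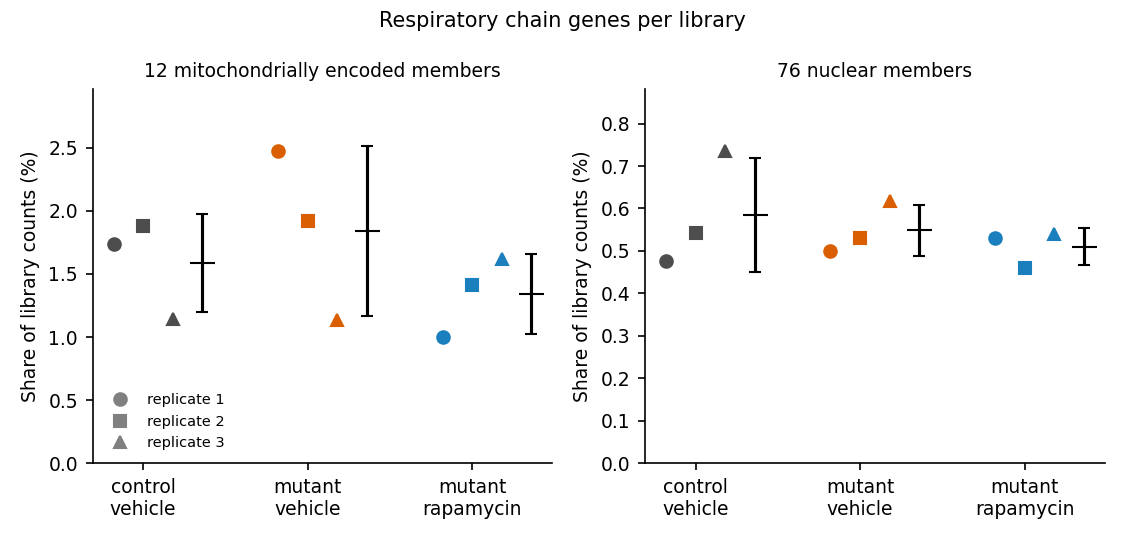
Share of library counts (%) taken by the 12 mitochondrially encoded members (left) and the 76 nuclear members (right), with 1 point a library and the group mean ± SD (n = 3) in black. The groups overlap in both panels, from 0.997% to 2.47% on the left and from 0.459% to 0.735% on the right.

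The nuclear members moved together across libraries, and in another order than the mitochondrial ones. Control vehicle 3 held the highest value of 66 of the 76 nuclear members (86.8%), against 22.3% of all genes tested, and mutant rapamycin 2 held the lowest value of 50 (65.8%), against 17.4% of all genes tested. Control vehicle 3 also held the lowest value of 20.9% of all genes tested, and of 0 nuclear members. In control vehicle 3 the median nuclear member lay 0.46 above its own mean on the log2 scale, and the median mitochondrial member lay 0.41 below its own mean, a deviation of -0.41. Mutant vehicle 1 held the highest value of 9 of the 12 mitochondrial members (75%), against 14.5% of all genes tested. The median deviation there was 0.78 for the mitochondrial members and -0.08 for the nuclear members. Mutant rapamycin 1 held the lowest value of 7 mitochondrial members (58.3%), against 9.37% of all genes tested. The ratio of a gene's highest to its lowest library had a median of 1.66 over the nuclear members. It ran from 1.15 for Ndufs1, the iron-sulfur subunit at the entry of complex I, to 3.66 for Ndufa4l2. Over the mitochondrial members the median ratio was 3.14, from 1.99 for mt-Co2, which had few counted reads, to 22.2 for mt-Atp8.

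**Figure D3:**
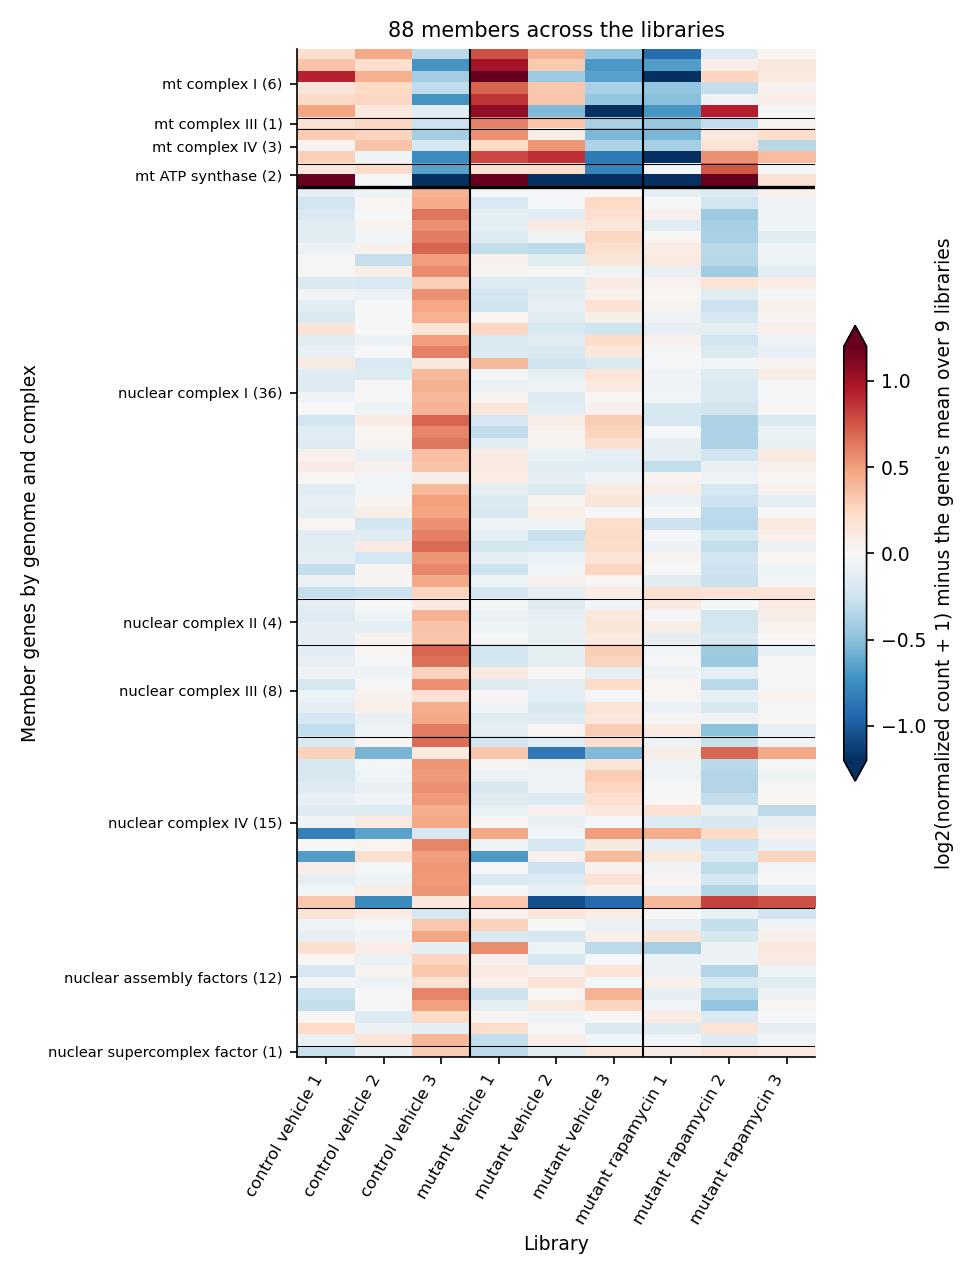
Deviation of each of the 88 members, 1 line a gene, from its own mean over the 9 libraries (log2 of normalized count + 1, colour from -1.2 to 1.2), ordered by genome and complex. The mitochondrial genes (top) are highest in mutant vehicle 1, and most nuclear genes are highest in control vehicle 3 and lowest in mutant rapamycin 2.

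Among the abundant mitochondrial messages, mt-Co1, the catalytic subunit of complex IV, had 149023, 145315 and 90730 normalized counts in control vehicle, 176256, 126441 and 82978 in mutant vehicle, and 82446, 130095 and 139336 in mutant rapamycin libraries. mt-Cytb, the haem-bearing core of complex III, had 112348, 117451 and 82731, then 150505, 124996 and 75584, then 72296, 80662 and 101674 in the same order. mt-Nd1, a membrane subunit of complex I, had 83829, 99836 and 58752, then 123781, 97433 and 53098, then 38695, 65633 and 74162. In all 3 genes control vehicle 3, mutant vehicle 3 and mutant rapamycin 1 were low within their groups, and the groups overlapped. On the scale of mean normalized counts per kilobase, mt-Cytb was at 89185, mt-Co1 at 80735 and mt-Nd1 at 80717, whereas the most abundant nuclear member, Cox8a, was at 6815. That scale uses the full length, although only 60.2% of the mt-Co1 windows are unique. Per unique window the mean counts were 141 for mt-Co1, 95.4 for mt-Cytb and 87.5 for mt-Nd1.

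Among nuclear genes of complex I, levels per kilobase of annotated exon ran from 79.1 for Ndufb2 (mean count 445, 5628 bases) to 2641 for Ndufb11 (2398, 908 bases). Both are accessory subunits of the membrane arm. These levels depend on the annotated length as well as on the count. Ndufb11 had 2218, 2365 and 3589 normalized counts in control vehicle, 2093, 2068 and 2605 in mutant vehicle, and 2348, 2092 and 2205 in mutant rapamycin libraries, so that control vehicle 3 stood alone. In complex II the levels per kilobase ran from 964 for the membrane anchor Sdhc (mean count 3134, 3250 bases) to 2451 for the other anchor Sdhd (3017, 1231 bases). Sdhc had the higher mean count of these anchors, so their order per kilobase comes from annotated length. The flavoprotein Sdha had 6362 to 7393 normalized counts in control vehicle, 6193 to 6710 in mutant vehicle and 6788 to 7429 in mutant rapamycin libraries. In complex III the levels per kilobase ran from 845 for Uqcrq (mean count 1547, 1831 bases) to 2938 for the hinge protein Uqcrh (3634, 1237 bases). In complex IV they ran from 39.7 for Cox7a1 to 6815 for Cox8a, whose counts were 3836, 4000 and 5958 in control vehicle, 3678, 3726 and 4716 in mutant vehicle, and 4266, 3620 and 4167 in mutant rapamycin libraries. The assembly factors were lower, from 33.7 for Sdhaf3 (mean count 172, 5095 bases) to 291 for Sdhaf4 (254, 874 bases), both of which help mature complex II.

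No respiratory chain gene passed the test in the comparison of mutant with control cells under vehicle, which differ in loss of Tsc1 and in carrying Six2 Cre. The test was limma on log2(normalized count + 1) over all 19656 genes and all 9 libraries, with Benjamini-Hochberg adjustment at 0.05. It called 0 of 76 nuclear and 0 of 12 mitochondrial members, against 1.42% of all genes tested. At an unadjusted p under 0.05 there was 1 member, Cox7a1, against 10.1% of all genes tested, and the authors' deposited table also held 0 members at an adjusted p under 0.05. The median log2 fold change was -0.11 over the nuclear members, 69 of which were negative, and 0.10 over the mitochondrial members, 5 of which were negative, with a median of -0.01 over all genes tested. Both medians changed sign without control vehicle 3, to 0.05 for the nuclear and -0.08 for the mitochondrial members, and the mitochondrial median was -0.13 without mutant vehicle 1. Of the mitochondrial members with few counted reads, mt-Atp6 and mt-Nd3 were negative and mt-Co2 and mt-Co3 positive. Of the abundant ones, only mt-Co1 was negative (-0.03).

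By complex, the median log2 fold change of mutant against control vehicle was -0.13 for nuclear complex I, where 35 of 36 genes were negative, -0.08 for complex II (4 of 4), -0.12 for complex III (8 of 8), -0.17 for nuclear complex IV (14 of 15) and -0.01 for the assembly factors (7 of 12). The members with the smallest p in each complex were Ndufa2 of complex I (-0.36 ± 0.21, SE; limma adjusted p = 0.673), Sdhd of complex II (-0.09 ± 0.13; adjusted p = 0.934), Uqcrfs1, the Rieske iron-sulfur protein of complex III (-0.15 ± 0.15; adjusted p = 0.870), Cox7a1 of complex IV and Sdhaf4 among the assembly factors (-0.23 ± 0.18; adjusted p = 0.785). Ndufa2 had 1170, 1273 and 1997 normalized counts in control vehicle and 1009, 989 and 1402 in mutant vehicle libraries, and each mutant library lay below the control library of the same number. With the replicate number as a block and only these 6 libraries, an alternative chosen after seeing the data, limma called Ndufa2 lower (-0.36, adjusted p = 0.0392) and no other member, 1 of 88, against 7.09% of all genes tested in that fit (1398 of 19719). Without control vehicle 3, Sdhd was at 0.03. Among the mitochondrial genes the smallest p was that of mt-Nd5 (0.32 ± 0.33; limma adjusted p = 0.884).

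Mutant cells with rapamycin were compared with mutant cells under vehicle to ask what the drug did, and no member passed. Limma called 0 of 76 nuclear and 0 of 12 mitochondrial members, against 0.3% of all genes tested, with 2 members at an unadjusted p under 0.05 (Ndufa4l2 and Cox4i2, both higher) against 11.7% of all genes tested, and the authors' deposited table held 0 members at an adjusted p under 0.05. The median log2 fold change was -0.06 over the nuclear members, 57 of them negative, and -0.37 over the mitochondrial members, 9 of them negative. The mitochondrial median was -0.03 without mutant vehicle 1, 0.02 without mutant rapamycin 1 and -0.72 without mutant vehicle 3, so single libraries decided its size. The nuclear median was 0.00 without mutant rapamycin 2.

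The mitochondrial gene with the smallest p was mt-Nd1 (-0.59 ± 0.32; limma adjusted p = 0.525, 95% interval -1.30 to 0.13). The interval holds values on both sides of 0. The median residual SD was 0.52 on the log2 scale over the mitochondrial members and 0.22 over the nuclear members, against 0.27 over all genes tested. The nuclear smallest p by complex were those of Ndufv3, a small subunit beside the NADH site of complex I (0.25 ± 0.15; limma adjusted p = 0.571), Sdha (0.14 ± 0.10; adjusted p = 0.680), Uqcrq (-0.23 ± 0.23; adjusted p = 0.770), Ndufa4l2 of complex IV and the assembly factor Ndufaf6 (-0.27 ± 0.18; adjusted p = 0.624). Ndufv3 had 1467, 1575 and 1811 normalized counts in mutant vehicle and 1945, 1916 and 1900 in mutant rapamycin libraries, without overlap. The groups did not overlap for 6 nuclear members (Ndufa4l2, Ndufv3 and Sdha higher with rapamycin, Ndufa5, Ndufaf1 and Ndufaf6 lower) or 7.89%, against 18.4% of all genes tested, and they overlapped for all 12 mitochondrial members.

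Against control vehicle cells, the rapamycin-treated mutants again had no member past the threshold. Limma called 0 of 88 members against 3.24% of all genes tested, with 5 nuclear and 0 mitochondrial members at an unadjusted p under 0.05 against 17.5% of all genes tested, and the authors' deposited table held 0 at an adjusted p under 0.05. The 5 were Cox7a1, which was higher, and Ndufa5, Ndufa4, Cox6c and Cox7a2, which were lower. Ndufa5, an accessory subunit of the matrix arm of complex I, had 952, 989 and 1401 normalized counts in control vehicle and 887, 707 and 861 in mutant rapamycin libraries, without overlap (-0.43 ± 0.16; limma adjusted p = 0.192, the smallest of any member here). The groups did not overlap for 7 nuclear members, or 9.21%, against 23.1% of all genes tested. The median log2 fold change was -0.19 over the nuclear members, 68 of them negative, and -0.02 without control vehicle 3. It was -0.11 over the mitochondrial members, 9 of them negative, 0.03 without control vehicle 1, 0.09 without mutant rapamycin 1 and -0.41 without control vehicle 3.

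The other smallest p in this comparison were those of Sdhd (-0.18 ± 0.13; limma adjusted p = 0.522), Uqcr10 of complex III (-0.38 ± 0.22; adjusted p = 0.402), Ndufaf2 (-0.22 ± 0.17; adjusted p = 0.549) and mt-Nd1 (-0.46 ± 0.32; adjusted p = 0.516). Ndufaf2 has 36.8% unique windows, and 1881 of its 2975 windows also occur in B230220B15Rik, a non-coding RNA gene of the same chromosome. This comparison uses the control libraries of the first comparison and the rapamycin libraries of the second, so the 3 are not independent of each other.

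Of the alternative isoforms of complex IV, Ndufa4l2, Cox4i2 and Cox7a1 were not highest in control vehicle 3, unlike most nuclear members, whereas Cox6b2 was. Complex IV and its neighbours have some subunits in pairs, a common form and a form used in certain tissues or under low oxygen, and 8 such alternative genes were looked up. Ndufa4l2, Cox4i2, Cox6b2 and Cox7a1 passed the mean count, Cox6a2 did not (mean 1.18), Cox7b2 and Cox8b had no normalized count, and Cox8c had 0 counts. Of the members, Cox7a1 at a mean of 21.2 and mt-Co2 at 16.6 lay nearest to the minimum of 5.

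Ndufa4l2, a low-oxygen-inducible relative of the complex IV subunit Ndufa4, had 747, 352 and 651 normalized counts in control vehicle, 751, 288 and 315 in mutant vehicle, and 785, 1055 and 1023 in mutant rapamycin libraries. Every rapamycin library was above every vehicle library of either genotype, by a small margin for mutant rapamycin 1 over mutant vehicle 1. The log2 fold change of rapamycin against vehicle in mutants was 1.21 ± 0.36 (95% interval 0.42 to 2.00; limma adjusted p = 0.216), and the adjusted p in the authors' deposited table was 0.0973. Without mutant vehicle 1 it was 1.65 and passed (limma adjusted p = 0.0307), while over all other alternatives the adjusted p ran from 0.144 to 0.704. Against control vehicle the log2 fold change was 0.77 ± 0.36 with rapamycin (adjusted p = 0.303) and -0.44 ± 0.36 without (limma adjusted p = 0.811). As a share of Ndufa4, whose own counts were 2319 to 4295 over the libraries, Ndufa4l2 was 25.8%, 11.1% and 15.2% in control vehicle, 25.2%, 10.3% and 10.2% in mutant vehicle, and 27.6%, 45.5% and 37.6% in mutant rapamycin libraries.

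Cox4i2, the form of subunit 4 known from lung and from low oxygen, had the same order of libraries within each group. It had 227, 127 and 202 normalized counts in control vehicle, 236, 103 and 129 in mutant vehicle, and 196, 304 and 256 in mutant rapamycin libraries, with overlap between the groups. Its log2 fold change with rapamycin in mutants was 0.76 ± 0.32 (limma adjusted p = 0.391), and it was 0.47 ± 0.32 against control vehicle (adjusted p = 0.509) and -0.29 ± 0.32 in mutant against control vehicle (adjusted p = 0.895). The common form Cox4i1 was far higher, with 6423, 7469 and 11660, then 6220, 6686 and 8433, then 7009, 6073 and 7147 normalized counts, and Cox4i2 ranged from 1.53% of it in mutant vehicle 3 to 5.01% in mutant rapamycin 2.

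Levels of stromal markers are given beside both isoforms. All 9 stromal markers were counted, with summed normalized counts of 133156 to 148420 in control vehicle, 125487 to 142100 in mutant vehicle and 188415 to 239886 in mutant rapamycin libraries. With rapamycin in mutants all 9 had a positive log2 fold change (median 0.69), of which 1, Col1a1, passed (0.76 ± 0.13; limma adjusted p = 0.0446). The pericyte and stromal receptor Pdgfrb was chosen after its values were seen. It had 11978, 10083 and 11138 normalized counts in control vehicle, 10162, 7600 and 7652 in mutant vehicle, and 12124, 11610 and 11501 in mutant rapamycin libraries. Mutant vehicle 2 and 3 were lowest for Pdgfrb, as for Ndufa4l2, whereas for Cox4i2 control vehicle 2 lay between them. Among the rapamycin libraries the order differed. Pdgfrb and the stromal sum (239886, 188415 and 195061 in mutant rapamycin 1 to 3) were highest in mutant rapamycin 1, where Ndufa4l2 and Cox4i2 were lowest. Stroma was not the only marker list that rose with rapamycin in mutants. All 9 intercalated cell markers (median 1.84), all 7 principal cell markers (1.56) and all 6 erythroid markers tested (1.18) were positive. Of 7 endothelial markers, 6 were positive (0.44). All 9 leukocyte markers (-0.55) and all 7 podocyte markers (-0.64) were negative. The part of stromal or other cells in the level of these isoforms was not tested.

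Cox7a1, the heart and skeletal muscle form of subunit 7a, was counted at very low levels that lay lower in the control group than in both mutant groups. It had 11.0, 12.6 and 17.5 normalized counts in control vehicle, 28.2, 19.8 and 29.0 in mutant vehicle, and 27.9, 24.0 and 20.9 in mutant rapamycin libraries. Both mutant groups lay above the control group without overlap, where 1.32% of the nuclear members and 13.3% of all genes tested did not overlap between mutant and control vehicle. The log2 fold changes against control vehicle were 0.87 ± 0.31 (limma adjusted p = 0.309) under vehicle and 0.80 ± 0.31 (adjusted p = 0.212) under rapamycin, and neither passed in any alternative tried. Its partner Cox7a2 had 1947 to 3484 normalized counts, and Cox7a1 was 0.476% to 0.535% of it in control vehicle and 0.970% to 1.30% in the 6 mutant libraries. The summed normalized count of 19 skeletal muscle markers was 632 to 951 in control vehicle, 1037 to 1276 in mutant vehicle and 1045 to 1494 in mutant rapamycin libraries. None of the 19 was at 0 counts in all libraries, and 1, Actn3, passed in mutant against control vehicle (2.48 ± 0.21; limma adjusted p = 0.000227), with 78.1 to 93.5 normalized counts in control vehicle and 401 to 555 in mutant vehicle libraries. Without Actn3 the sum of the other 18 was 538 to 867 in control vehicle, 548 to 721 in mutant vehicle and 556 to 713 in mutant rapamycin libraries, so the groups overlapped. Of 11 muscle markers tested, 7 were positive in mutant against control vehicle (median log2 fold change 0.09) and 4 in mutant rapamycin against control vehicle (median -0.09). The part of such cells in the Cox7a1 level was not tested. Cox6b2, the testis form of subunit 6b, had 249 to 418 normalized counts over all 9 libraries, highest in control vehicle 3, and was 7.58% to 11.1% of Cox6b1. Its highest library was 1.68 times its lowest, near the nuclear median of 1.66.

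**Figure D4:**
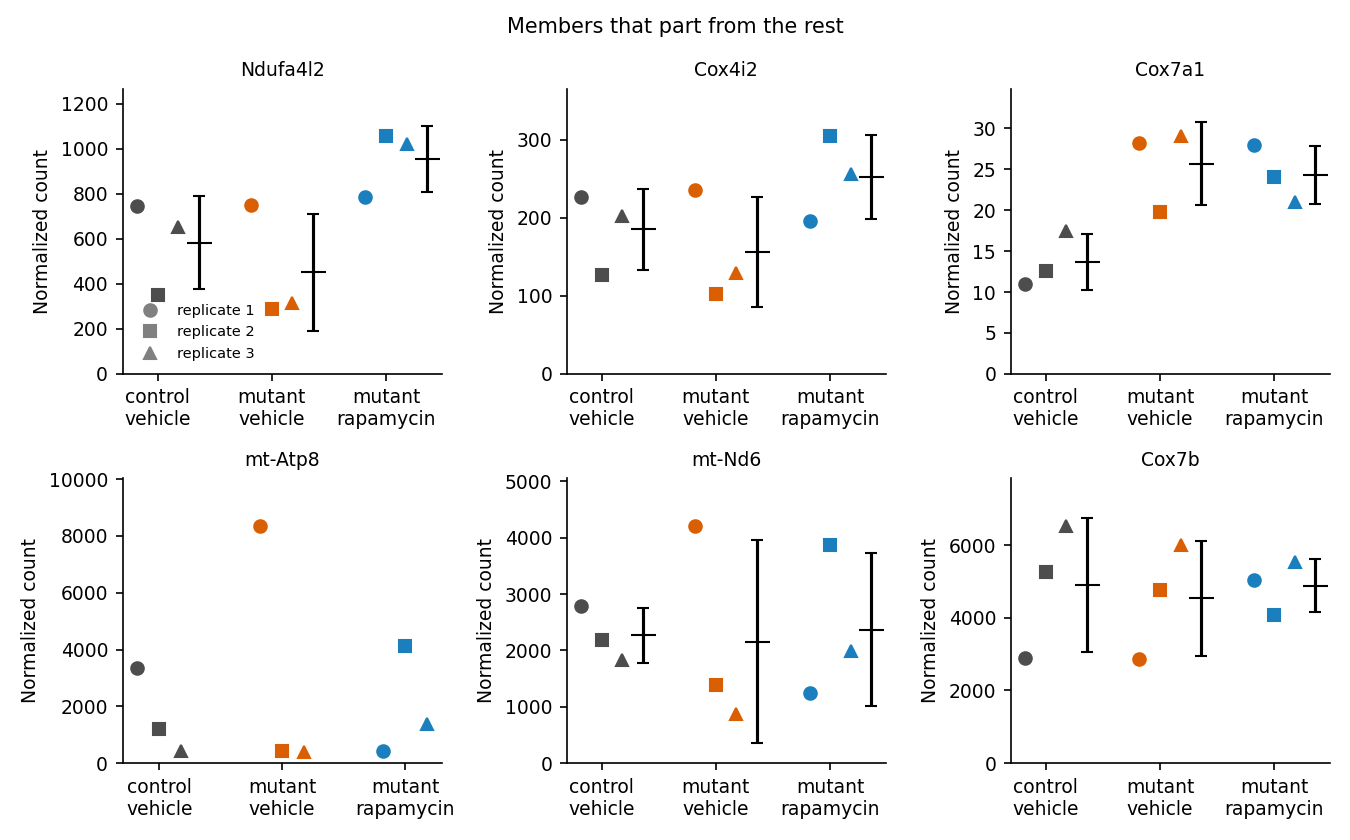
Normalized counts of 6 members in each library, 1 point a library by group, with the group mean ± SD (n = 3) in black except for mt-Atp8. Ndufa4l2 is at 785 or more in every mutant rapamycin library, Cox7a1 is at 17.5 or less in every control vehicle library, and mt-Atp8, mt-Nd6 and Cox7b separate libraries within groups.

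Some members set single libraries apart, across groups. mt-Atp8, a small ATP synthase subunit whose message is shared with mt-Atp6, had 3333, 1200 and 412 normalized counts in control vehicle, 8359, 429 and 377 in mutant vehicle, and 435, 4118 and 1363 in mutant rapamycin libraries. Mutant vehicle 1, mutant rapamycin 2 and control vehicle 1 were the highest, 1 in each group. As a share of mt-Cytb it was 5.55%, 5.11% and 2.97% in these 3 libraries and 0.343% to 1.34% in the other 6. The window share of 100% unique for mt-Atp8 covers annotated transcripts only, and the 233 bases between the chromosome 1 copies of mt-Atp6 and mt-Co2, where a copy of mt-Atp8 would lie, are not annotated. Gm28438, the copy of mt-Nd3 in that block, had 9, 3 and 1 raw counts in control vehicle, 21, 2 and 0 in mutant vehicle, and 0, 9 and 3 in mutant rapamycin libraries, so the same 3 libraries were the highest.

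mt-Nd6, a complex I subunit and the only protein gene on the other strand of the mitochondrial genome, ranked the same 3 libraries highest. It had 2791, 2183 and 1835 normalized counts in control vehicle, 4212, 1392 and 869 in mutant vehicle, and 1241, 3870 and 1988 in mutant rapamycin libraries, and its share of mt-Cytb ranged from 1.11% in mutant vehicle 2 to 4.80% in mutant rapamycin 2. It overlaps mt-Nd5 by its end on the opposite strand, and whether counting used strand is not given. The Gm42418 share was high in control vehicle 1 and mutant rapamycin 2 but was 0.693% in mutant vehicle 1, and its part in the mt-Atp8 and mt-Nd6 levels was not tested. Cox7b, an X-linked subunit of complex IV, split the libraries in another way. It had 2893 normalized counts in control vehicle 1 and 2856 in mutant vehicle 1, against 4084 to 6532 in the other 7 libraries, and was 125% and 128% of Cox7a2 in those 2 libraries and 187% to 256% in the others.

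The wider oxidative phosphorylation and mitochondrial lists held no gene that passed by limma in any of the 3 comparisons. Of the 126 genes on these lists, limma found 1, 7 and 10 at an unadjusted p under 0.05 in mutant vehicle against control vehicle, mutant rapamycin against mutant vehicle and mutant rapamycin against control vehicle. These are 0.794%, 5.56% and 7.94% of the list genes, each below the 10.1%, 11.7% and 17.5% of all genes tested. The authors' deposited table had 0, 0 and 3 list genes (Pdk1, Ppara and Ppard) at an adjusted p under 0.05, where it had 2.42%, 1.59% and 5.01% of all its genes with an adjusted p. All 18 nuclear ATP synthase genes had a negative log2 fold change in mutant against control vehicle (median -0.14) and in mutant rapamycin against control vehicle (median -0.24), and their summed normalized counts were 106412, 115664 and 151356 in control vehicle, 108715, 104211 and 121565 in mutant vehicle, and 111369, 97459 and 114026 in mutant rapamycin libraries. Control vehicle 3 was thus the highest and mutant rapamycin 2 the lowest for the ATP synthase as for the respiratory chain. Of 34 other respiratory and assembly genes, 23 were negative in mutant against control vehicle, and Higd1a, a supercomplex-associated protein, had the smallest p with rapamycin in mutants (0.57 ± 0.18; limma adjusted p = 0.250). Of 17 genes for mitochondrial DNA upkeep and transcription, 12 were negative, and the smallest p was that of Tefm, the mitochondrial transcription elongation factor, with 263, 268 and 293 normalized counts in control vehicle and 224, 202 and 209 in mutant vehicle libraries (-0.37 ± 0.16; limma adjusted p = 0.432).

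Tfam, which packages mitochondrial DNA and starts its transcription, had 1669, 1647 and 1808 normalized counts in control vehicle and 1383, 1388 and 1479 in mutant rapamycin libraries, without overlap (-0.27 ± 0.11; limma adjusted p = 0.222). The smallest p among 19 genes of mitochondrial RNA processing was that of Hsd17b10 in mutant against control vehicle (-0.29 ± 0.16; limma adjusted p = 0.648). Among 16 nuclear regulators of respiratory genes, Ppara, a receptor that drives fatty acid oxidation, had 99.0, 72.7 and 63.4 normalized counts in control vehicle, 128, 82.2 and 90.4 in mutant vehicle, and 143, 161 and 145 in mutant rapamycin libraries. The rapamycin libraries lay above all others, and the log2 fold change against control vehicle was 0.95 ± 0.24 (limma adjusted p = 0.0580). Among 22 genes of pyruvate dehydrogenase and the citric acid cycle, 0 passed, and the smallest p in mutant against control vehicle was that of the fumarase gene Fh1 (-0.23 ± 0.15; limma adjusted p = 0.705). In mutant rapamycin against control vehicle it was that of Pdk1, which restrains pyruvate dehydrogenase, with 1794, 735 and 788 normalized counts in control vehicle, 2666, 973 and 899 in mutant vehicle, and 2739, 5426 and 3296 in mutant rapamycin libraries (1.85 ± 0.45; limma adjusted p = 0.0530).

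The promoters of the nuclear members were searched because these genes moved together across libraries. Promoters (250 bases before to 50 after the start, RefSeq, GRCm38.p6) were found for 63 of the 76 nuclear members, 65 windows in all. The letters of NRF1, a factor known to control respiratory genes (searched, like the others, on both strands), were in 24.6% of them and in 4.60% of all 32851 promoters. The ETS letters CCGGAAG, as bound by GABP, were in 24.6% and 8.86%, and the YY1 letters AAGATGG in 13.8% and 6.34%. At least 1 of the 3 was in 55.4% of the member windows and in 18.0% of all, and the member windows were also richer in G and C, with a median of 59% against 52.7%. Such a match is a run of letters and not a measured site. The windows below are those of the most abundant member per kilobase with NRF1 letters in complexes I, III and IV, with matches in capitals: Ndufa8 (chr2:36049289-36049588, minus strand), Uqcrc1 (chr9:108936398-108936697, plus strand) and Cox6a1 (chr5:115348909-115349208, minus strand), the last with an ETS match as well.
Ndufa8: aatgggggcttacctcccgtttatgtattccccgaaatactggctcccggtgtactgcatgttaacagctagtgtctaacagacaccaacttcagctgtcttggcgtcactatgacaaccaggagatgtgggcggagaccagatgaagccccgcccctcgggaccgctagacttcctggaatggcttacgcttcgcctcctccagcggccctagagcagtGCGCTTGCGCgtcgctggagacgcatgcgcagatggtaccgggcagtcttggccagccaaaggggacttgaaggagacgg
Uqcrc1: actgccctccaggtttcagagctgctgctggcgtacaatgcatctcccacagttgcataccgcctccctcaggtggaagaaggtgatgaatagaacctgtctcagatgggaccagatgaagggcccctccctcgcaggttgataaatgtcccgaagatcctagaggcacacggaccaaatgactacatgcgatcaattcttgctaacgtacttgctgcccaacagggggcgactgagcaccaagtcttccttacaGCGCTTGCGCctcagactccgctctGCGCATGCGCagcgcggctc
Cox6a1: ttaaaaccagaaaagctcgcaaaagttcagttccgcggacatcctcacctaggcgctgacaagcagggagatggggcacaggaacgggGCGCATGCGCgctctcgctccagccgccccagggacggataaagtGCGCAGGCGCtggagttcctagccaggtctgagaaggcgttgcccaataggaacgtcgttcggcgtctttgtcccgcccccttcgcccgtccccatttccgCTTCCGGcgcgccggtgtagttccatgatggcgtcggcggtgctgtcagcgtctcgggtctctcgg

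Uqcrc1, a core protein of complex III, had 4884, 5562 and 8146 normalized counts in control vehicle, 5013, 5168 and 6508 in mutant vehicle, and 5664, 4467 and 5516 in mutant rapamycin libraries. Cox6a1, the common form of complex IV subunit 6a, had 2977, 3110 and 4842, then 2909, 3226 and 3975, then 3328, 2606 and 3335. Both were highest in control vehicle 3 and lowest in mutant rapamycin 2, as most nuclear members were.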

How the data were processed

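The authors deposited a single table, in which every gene has read counts, counts scaled by library, and, per comparison, a log2 fold change with its p-value and adjusted p-value. Per the submitters' processing notes, the pipeline included DESeq2 1.22.1, HTSeq 0.6.0, TopHat2 2.1.1 and cutadapt 1.18, with GRCm38; which step each did, and whether counting used strand, is not stated. Dividing raw counts by a size factor of 0.874 to 1.19 per library gives the normalized counts. A mark replaced the raw count of 6252 genes, all of them without a normalized count and so outside the fits. Raw counts gave the shares of library counts and the alternative scalings, and the main test used the normalized counts.

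From these, log2(normalized count + 1) was fitted with limma 3.58.1 (R 4.3.3, trend and robust settings) over 19656 genes and 9 libraries, with 3 group means and Benjamini-Hochberg adjustment; a fold change is on that scale and understates the change of low genes. The script was tested on simulated data. Levels per kilobase use the union of annotated exons (GENCODE M21), whose coordinates matched the table for 88 of the 93 genes of the name rule. Windows of 75 bases were matched exactly, on either strand, to GENCODE M21 transcripts. Another gene overlapped 32 of 76 nuclear and 9 of 12 mitochondrial members.

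Replicate numbers come from the titles. Deviations of same-numbered libraries from their group means correlated at 0.43, 0.14 and 0.45 between mutant and control vehicle. They correlated at -0.13, 0.08 and 0.06 between mutant rapamycin and mutant vehicle, and at -0.34, -0.01 and 0.22 between mutant rapamycin and control vehicle. All were positive in the first comparison only, and the middle one was weak. Libraries of different number correlated at -0.45 to 0.065 between mutant and control vehicle. Elsewhere they reached 0.47 for mutant rapamycin 2 with control vehicle 1 and 0.39 for mutant rapamycin 1 with control vehicle 3. Deviations from a group mean are not independent of each other, and the labels do not say what a shared number stands for. The values reported come from the fit without a block unless a block is named.

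The members and the gene lists were chosen with earlier results of these data known. Named genes are all mitochondrial protein genes, the members with the highest and lowest level per kilobase and the smallest p in each complex, the alternative isoforms with their partners, the smallest p of the other lists, the members next to the minimum mean, and those that set libraries apart (mt-Atp8, mt-Nd6, Cox7b), of which Cox7b, Ndufs1, Pdgfrb and the genes of the printed promoters were chosen after their values were seen.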

Additional observations from a re-analysis of the deposited data

How the results depend on the processing

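With pseudocounts of 0.5 and 5, without a filter on the mean or with a minimum of 20, with TMM scaling, scaling to the nuclear-encoded total, fits on only the groups compared, the planned replicate block over all 9 libraries, and without control vehicle 1 and mutant rapamycin 2, limma called 0 members in each of the 3 comparisons. The planned replicate block moved the count over all genes from 279 to 405 in mutant against control vehicle, from 59 to 206 in mutant rapamycin against mutant vehicle and from 637 to 1090 in mutant rapamycin against control vehicle. In none of these comparisons do the labels say that a shared number pairs libraries. Fits on only the groups compared gave 99, 87 and 455. With the replicate block and only the groups compared, an alternative chosen after seeing the data, 1 member (Ndufa2) was called in mutant against control vehicle, and 0 in the others, where this fit called 1398, 7 and 418 of all genes. Leaving out 1 library at a time gave 0 members in the comparisons with control vehicle and 0 to 1 in mutant rapamycin against mutant vehicle, the 1 being Ndufa4l2 without mutant vehicle 1. Without control vehicle 3, 51 of 76 nuclear members were positive in mutant against control vehicle, against 7 with it. Among the members refitted one by one (Ndufa4l2, Cox4i2 and the smallest p of each complex), Sdhd alone changed direction, and several medians did. Without 1 library the nuclear median ranged from -0.23 to 0.051 in mutant against control vehicle and from -0.11 to 0.0024 in mutant rapamycin against mutant vehicle, and it was also 0.0024 there without control vehicle 1 and mutant rapamycin 2. The mitochondrial median ranged from -0.13 to 0.45, from -0.72 to 0.016 and from -0.41 to 0.095 in mutant against control vehicle, mutant rapamycin against mutant vehicle and mutant rapamycin against control vehicle, and Sdhd from -0.19 to 0.033 in the first. The cause was not tested. The nuclear median of mutant rapamycin against control vehicle was negative throughout. The planned edgeR test was not run, although every gene tested had raw counts. A difference in a mitochondrial gene has a median SE of 0.38 on the log2 scale, and one in a nuclear member 0.17, which limits what 3 libraries a group can show.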
